A study of Rattus norvegicus with 6 samples.

Results

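Cytokine and TNF family receptors are the 64 genes, of 18166 named genes measured, whose symbols follow the patterns of the interleukin, interferon and TNF receptors, with the colony stimulating factor chains *Csf2rb* and *Csf3r* and the chains *Il6st*, *Lifr* and *Osmr*. The members were found by symbol and not by their values. 63 of them encode receptor chains or related proteins of the receptor families. The remaining gene, *Il36rn*, encodes a secreted antagonist of the interleukin 36 receptor, so the name does not hold for it. Relatives such as *Il2rb*, *Il15ra*, *Ifnar2*, *Il12rb1* and *Csf2ra* were not analysed here.

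Cytokine receptors of the hematopoietin and interferon families have no enzyme of their own and pass a signal through JAK kinases and STAT factors, usually as a pair of different chains. Receptors of the interleukin 1 and interleukin 17 families act through adaptors on NF-kB, and TNF receptors act through TRAF proteins or, where they carry a death domain, on cell death. In the gut wall, epithelial cells carry the receptors of interleukin 22 and interferon lambda, and lymphocytes, phagocytes and stromal cells carry many of the others.

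RNA came from the intestines of 3-week-old male Sprague-Dawley pups, 3 of HFD-sitagliptin dams and 3 of HFD dams, with 1 array for each pup. Both groups of dams ate a high-fat diet (HFD) from before mating, and the treated dams also received sitagliptin, an oral inhibitor of dipeptidyl peptidase 4, through pregnancy and lactation. The pups were exposed only through their dams and were studied at weaning, and the study took 1 male from each litter. The labels do not give the diet of the treated dams, which is taken from the study's methods, and neither source names the part of the intestine.

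The values are log2 levels from whole-transcript arrays. A gene was called above background where its mean exceeded 4.44, the 95th percentile of the means of 1185 olfactory receptor genes, a class with little use in the gut. 45 of the 64 receptor genes (70.3%) were above it, against 65.4% of all genes. The other 19 were *Csf3r*, *Il12rb2*, *Il13ra2*, *Il17rb*, *Il17rd*, *Il18rap*, *Il1r2*, *Il1rapl1*, *Il1rapl2*, *Il1rl2*, *Il20rb*, *Il23r*, *Il31ra*, *Il36rn*, *Il5ra*, *Il9r*, *Tnfrsf17*, *Tnfrsf19* and *Tnfrsf8*. The median of the receptor genes was between 5.04 and 5.31 on every array. Some deposited values recurred, and 22 receptor genes (34.4%) had the same value to 6 decimals on at least 2 of the 6 arrays, against 28.6% of all genes.

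HFD-sitagliptin replicate 1 stood apart from the other arrays over all genes (r = 0.926 to 0.940 with them, against 0.968 to 0.985 among the other 5; genes are not independent replicates). The mean of 10 brush border genes of the small intestine was 4.84 on it and 9.57 to 11.12 on the others, and all 10 were lowest there. Of 4 measured genes of colonic epithelium, *Car1* and *Hoxa13* were highest on it, at 12.41 and 6.53 against no more than 4.04 and 3.70 elsewhere. The other 2 were not, since *Aqp8* was highest on HFD-sitagliptin replicate 3 (7.48, against 3.97 on replicate 1) and *Hoxd13* was below background on all arrays, at 2.89 to 3.24. Genes of the ileum varied among the other 5 arrays too. The mean of 4 such genes was 11.10 on HFD-sitagliptin replicate 2, 9.95 on HFD replicate 2 and 6.71 to 7.79 on the rest of these 5. It was 5.46 on HFD-sitagliptin replicate 1. The part of this variation in the receptor values was not tested. The mean of 8 genes of all gut epithelium was 10.02 on HFD-sitagliptin replicate 1 and 10.10 to 10.44 on the others. These 8 did not move as a group. On HFD-sitagliptin replicate 1, 3 were lowest, among them *Vil1* (9.43 against 11.01 to 11.31). Another 3 were highest there, among them *Krt19* (11.24 against 10.47 to 10.86). The differences below that moved most with this array are given with and without it, and the plot of the differences shows both for every receptor gene. In bulk tissue, fewer cells of a type and less RNA per cell cannot be told apart.

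The comparison of the groups asked whether the intestine of pups of sitagliptin-treated dams differed in its receptor genes. In limma, 0 of 64 receptor genes passed the study's threshold of a 1.5-fold change with an unadjusted p under 0.05, against 365 of 18166 genes (2.01%). 1 of 64, *Il23r*, had an unadjusted p under 0.05, against 1040 of all genes (5.72%), and by the methods' t-test the counts were also 0 and 1, with 0.87% of all genes past the threshold. After adjustment over all genes, 0 genes of the whole array were below 0.05, with a lowest adjusted p of 0.718 in limma. The differences between groups (HFD-sitagliptin minus HFD) ran from -1.0 for *Il20ra* to 0.61 for *Il12rb2* on the log2 scale, with a median of 0.082 against 0.010 for all genes. 40 were positive and 24 negative, against 9422 and 8744 of all 18166 genes. Without HFD-sitagliptin replicate 1 the range narrowed to between -0.44 and 0.48, the median was 0.084 against -0.0072 for all genes, and the counts past the threshold were 0 receptor genes and 297 genes in all (1.63%).

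**Figure D1:**
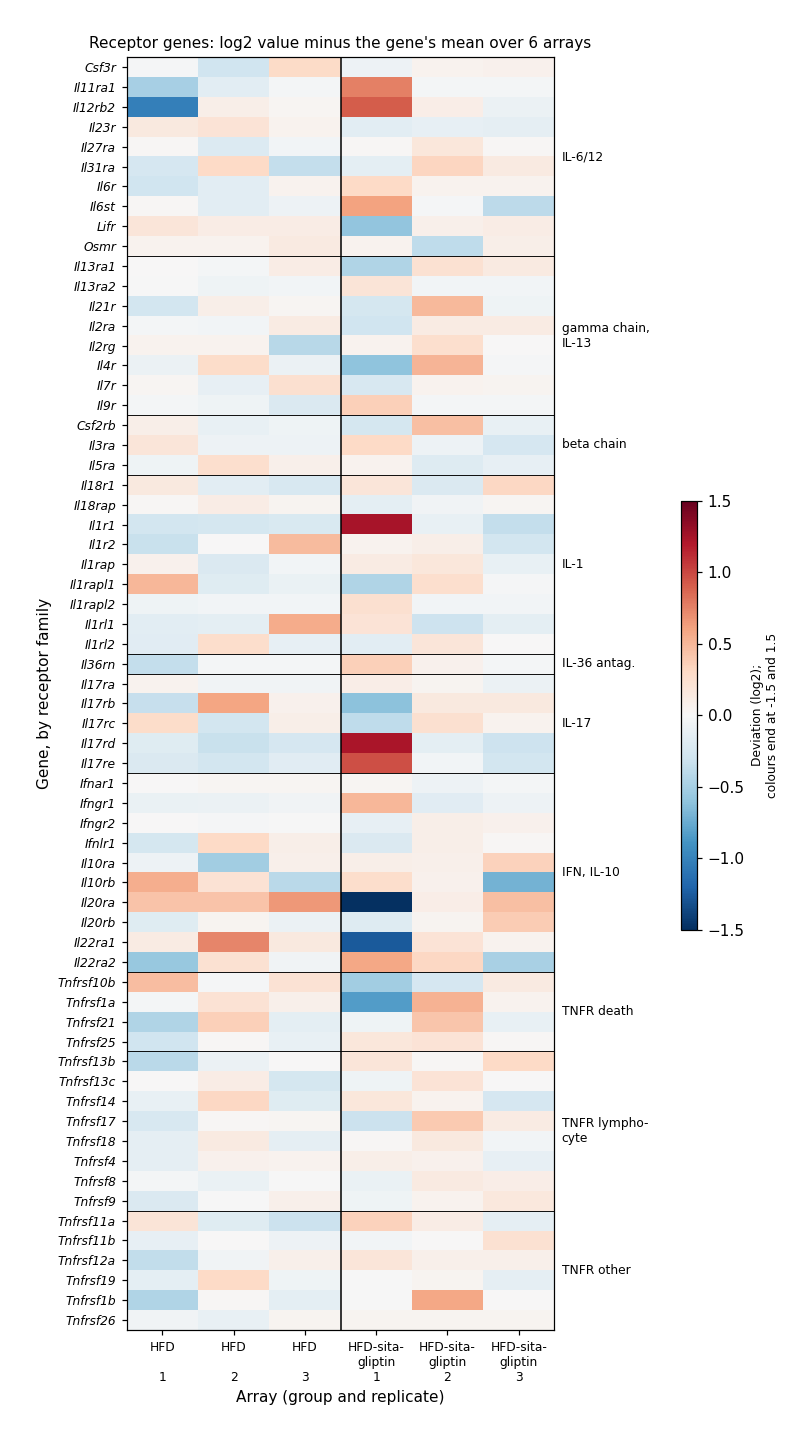
Deviation of each of the 64 receptor genes (rows, by receptor family) from its own mean over the 6 arrays (columns), on the log2 scale. Colours end at -1.5 and 1.5. The column of HFD-sitagliptin replicate 1 holds the strongest colours, dark red for *Il1r1*, *Il17rd* and *Il17re* and dark blue for *Il20ra* and *Il22ra1*.

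A missed threshold does not show equal levels, so the intervals of the differences were read as well. The 95% interval in limma lay wholly inside a 1.5-fold change in either direction for 32 of 64 receptor genes, against 45.2% of all genes, and reached past it for the other 32. The median interval extended 0.43 to each side of its difference on the log2 scale. The spread within groups was like that of other genes, with a median SD of 0.229 for the receptor genes and 0.227 for all genes. The 3 values of a group lay wholly apart from the 3 of the other group for 2 of 64 receptor genes (3.13%), higher in the HFD-sitagliptin group for *Tnfrsf13b* and lower for *Il23r*. Groups that did not overlap were seen for 11.5% of all genes, 5.97% higher and 5.54% lower.

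**Figure D2:**
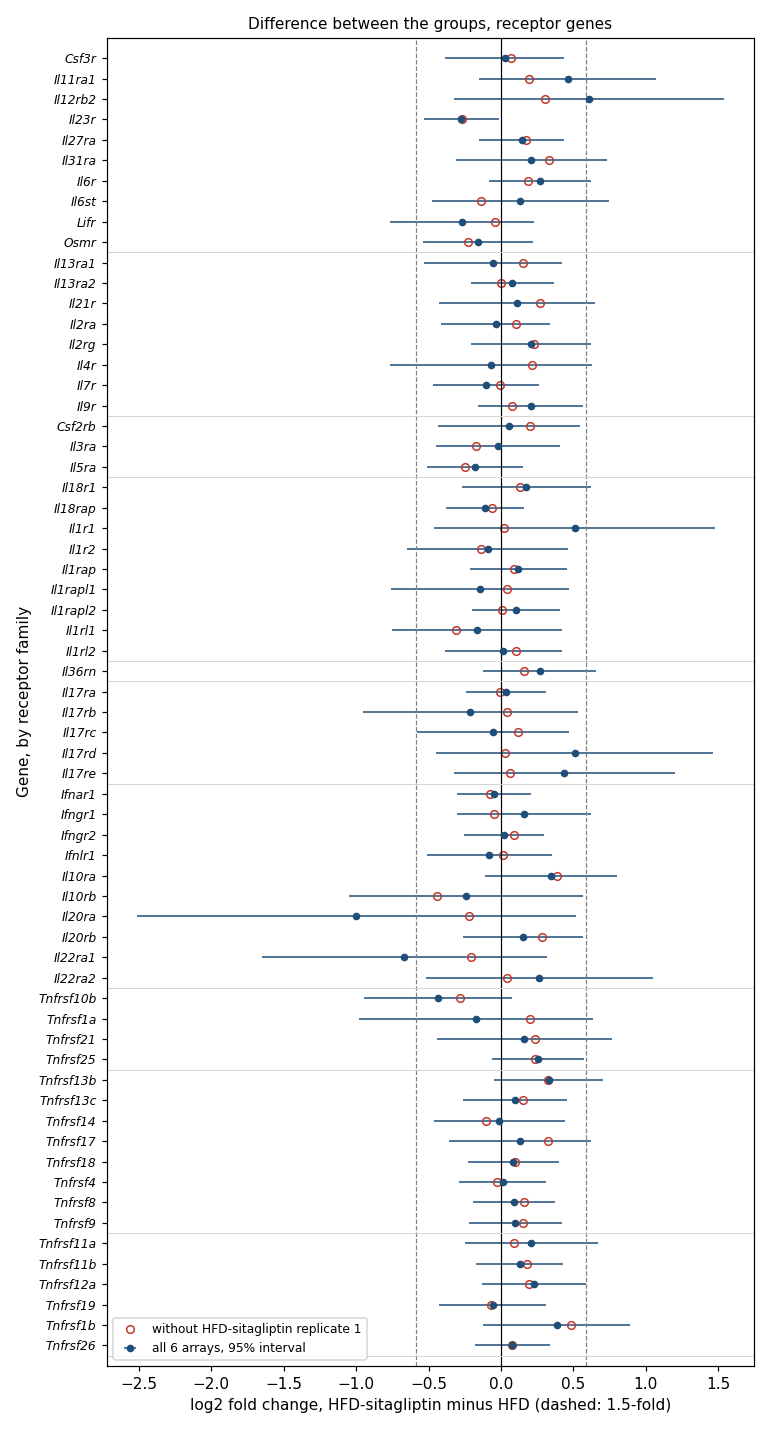
Difference between groups (HFD-sitagliptin minus HFD, log2) for each of the 64 receptor genes with its 95% interval from limma, and the same difference without HFD-sitagliptin replicate 1. The dashed lines mark a 1.5-fold change, and the differences of *Il20ra*, *Il22ra1*, *Il1r1*, *Il17rd* and *Il17re* move toward 0 when that array is left out.

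The receptors of the interferon and interleukin 10 families held the widest range of differences, -1.0 to 0.35 over 10 genes. *Il20ra*, which pairs with *Il20rb* to bind cytokines of the interleukin 20 group, was at 5.05, 7.22 and 7.57 in the HFD-sitagliptin arrays and at 7.54, 7.53 and 7.76 in the HFD arrays. Replicate 1 of the HFD-sitagliptin group was 2.17 below the lowest of the other 5, among which the groups overlapped. The difference was -1.0 (SE 0.63, 95% interval -2.52 to 0.52), and -0.22 without that array. *Il22ra1*, the specific chain of the epithelial interleukin 22 receptor, was at 6.39, 7.85 and 7.70 in the HFD-sitagliptin arrays and at 7.77, 8.37 and 7.80 in the HFD arrays. Again replicate 1 alone was low, 1.31 below the lowest of the others, and the difference of -0.67 (SE 0.41, 95% interval -1.65 to 0.32) became -0.21 (95% interval -0.76 to 0.35) without it. Its partner chain *Il10rb*, shared by the receptors of interleukin 10, interleukin 22 and interferon lambda, was not low on that array. It was at 9.45, 9.25 and 8.47 against 9.72, 9.40 and 8.78, with wide spread in both groups and a difference of -0.24 (SE 0.34), or -0.44 without HFD-sitagliptin replicate 1. *Il22ra2* encodes a soluble decoy that binds interleukin 22 and keeps it from its receptor. Its values were 5.91, 5.64 and 4.85 against 4.77, 5.56 and 5.28, a difference of 0.27 (SE 0.33) that was 0.04 without HFD-sitagliptin replicate 1.

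In the RefSeq annotation, *Il22ra1* and *Ifnlr1*, the specific chain of the interferon lambda receptor, are neighbours with no other protein-coding gene between them, and both serve epithelial cells. On HFD-sitagliptin replicate 1 *Il22ra1* was low, whereas *Ifnlr1*, at 5.82, stayed within the 5.78 to 6.34 of the other arrays. The 250 bases before their annotated starts are shown because these neighbours read differently on the same array. They come from RefSeq (build GRCr8), lie on the plus strand at chr5:153244817-153245066 for *Il22ra1* and chr5:153203347-153203596 for *Ifnlr1*, and are printed in the direction of transcription with motif matches in capitals.
Il22ra1: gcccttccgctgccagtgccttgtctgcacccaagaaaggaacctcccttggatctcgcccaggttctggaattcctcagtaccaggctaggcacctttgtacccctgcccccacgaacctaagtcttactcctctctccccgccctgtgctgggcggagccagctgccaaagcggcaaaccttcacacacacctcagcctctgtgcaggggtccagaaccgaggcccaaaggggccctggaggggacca
Ifnlr1: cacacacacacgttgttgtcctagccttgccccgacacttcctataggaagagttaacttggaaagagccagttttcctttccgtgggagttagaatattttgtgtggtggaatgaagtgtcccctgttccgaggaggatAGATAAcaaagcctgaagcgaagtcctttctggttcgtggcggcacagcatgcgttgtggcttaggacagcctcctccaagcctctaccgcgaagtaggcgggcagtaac
The *Il22ra1* stretch is 62% G and C with 7 CpG dinucleotides, and the *Ifnlr1* stretch is 51.6% with 11. Letters of 7 motifs were searched for on both strands, in these and in all 33469 promoter stretches of this length. The HNF1 letters GTTAAT were present in 6.45% of all stretches, the HNF4 letters CAAAGTCC in 1.14%, and the CDX letters TTTATNG in 10.1%. The STAT letters TTCNNNGAA were present in 7.67%, the AP-1 letters TGANTCA in 6.34% and those of NF-kB, which are GGG, any 2 bases and then TTTCC, in 1.30%. None of these was present in the *Il22ra1* or the *Ifnlr1* stretch. The capitals in *Ifnlr1*, at bases 141 to 146, are the letters AGATAA of GATA factors, which 10.3% of all stretches held and 6 of the 49 receptor genes that could be matched to one (12.2%). They were not present in the *Il22ra1* stretch. A match of these letters is a description of the sequence and not a binding site.

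The other genes of this group varied less. *Ifngr1*, the ligand-binding chain for interferon gamma, was at 10.16, 9.49 and 9.58 in the HFD-sitagliptin arrays and at 9.56, 9.58 and 9.61 in the HFD arrays. The HFD arrays lay close together, HFD-sitagliptin replicate 1 was 0.55 above all others, and the difference of 0.16 (SE 0.19) was -0.05 without it. *Ifngr2*, the second chain, had a difference of 0.02 (SE 0.12, 95% interval -0.26 to 0.30) with values from 8.79 to 9.0. *Ifngr1*, *Il22ra2* and *Il20ra* lie next to each other in the genome, and on HFD-sitagliptin replicate 1 the first and second were the highest of the 6 arrays and the last the lowest. *Il10ra*, the chain that binds interleukin 10 on leukocytes, was at 4.67, 4.66 and 4.93 against 4.51, 4.05 and 4.66, and its difference of 0.35 (SE 0.19) did not pass.

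Among the interleukin 1 receptors, *Il1r1*, which carries the signal of interleukin 1, was at 7.37, 6.02 and 5.77 in the HFD-sitagliptin arrays and at 5.86, 5.87 and 5.90 in the HFD arrays. Only HFD-sitagliptin replicate 1 was high, by 1.35 over the next array, and the difference went from 0.51 (SE 0.40) to 0.02 (95% interval -0.31 to 0.34) without it. *Il1r1* heads a run of 5 neighbouring receptor genes, *Il1r1*, *Il1rl2*, *Il1rl1*, *Il18r1* and *Il18rap*, and the other 4 stayed within the range of the other arrays on that array or, for *Il18rap*, 0.10 below it. Its upstream sequence is shown because *Il1r1* alone of that run was raised there. It lies on the plus strand at chr9:50034133-50034382 (GRCr8) and held none of the motifs searched, so it has no capitals.
Il1r1: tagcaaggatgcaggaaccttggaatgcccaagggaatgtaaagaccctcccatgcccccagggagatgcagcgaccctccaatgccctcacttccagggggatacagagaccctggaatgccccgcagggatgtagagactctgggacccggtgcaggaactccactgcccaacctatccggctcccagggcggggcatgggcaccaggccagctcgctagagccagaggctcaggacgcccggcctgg
This stretch is 63.6% G and C with 8 CpG dinucleotides. *Il1rap*, the accessory chain that *Il1r1* needs to signal, was at 6.64, 6.69 and 6.42 against 6.59, 6.31 and 6.49, a difference of 0.12 (SE 0.14, 95% interval -0.21 to 0.45). The decoy *Il1r2* was not above background, at 3.62 to 3.99 against 3.56 to 4.37. *Il18r1* binds interleukin 18 and *Il18rap* is its signalling partner. *Il18r1* was at 6.24, 5.84 and 6.37 against 6.21, 5.91 and 5.82, with overlapping groups and a difference of 0.18 (SE 0.19). *Il18rap* was below background on all 6 arrays, at 3.75 to 3.93 against 3.92 to 4.01. *Il36rn*, which blocks the interleukin 36 receptor *Il1rl2*, was not above background either, with a difference of 0.27 (SE 0.16) that was 0.16 without HFD-sitagliptin replicate 1.

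In the interleukin 17 receptor family, 2 of 5 genes were raised on HFD-sitagliptin replicate 1 alone. *Il17re*, the epithelial receptor chain for interleukin 17C, was at 6.53, 5.51 and 5.28 in the HFD-sitagliptin arrays and at 5.34, 5.28 and 5.38 in the HFD arrays. Its difference was 0.44 (SE 0.32), and 0.06 without that array. *Il17rd*, known as Sef and as an inhibitor of fibroblast growth factor signalling, was at 5.35, 3.99 and 3.82 against 3.95, 3.79 and 3.88. It was above the background level on that array only, and its difference of 0.51 (SE 0.40) was 0.03 without it. *Il17rc*, the partner chain for interleukin 17A and the genomic neighbour of *Il17re*, was instead lowest there, at 6.49, 7.10 and 6.92 against 7.14, 6.59 and 6.96, and its groups overlapped with a difference of -0.06 (SE 0.22), or 0.12 without it.

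Over all 64 receptor genes, HFD-sitagliptin replicate 1 lay at least 1 log2 unit outside the other 5 arrays for 5 (7.81%), against 3.91% of all genes. It was above them for *Il1r1*, *Il17rd* and *Il17re* and below them for *Il20ra* and *Il22ra1*, and no other array lay so far out for any receptor gene. It was the highest or lowest array for 36 of 64 receptor genes (56.3%), against 47.0% of all genes, with 18 at each end. HFD replicate 1 was lowest for 19 receptor genes and highest for 5, and HFD-sitagliptin replicate 2 was highest for 17 and lowest for 5. Of all 18166 genes, HFD replicate 1 was lowest for 3377 and highest for 3961. HFD-sitagliptin replicate 2 was highest for 2789 of them and lowest for 2558. The whole-array medians of these arrays were the lowest (4.45) and the highest (4.62). The part of this offset in the receptor counts was not tested. Genes of some other compartments moved with HFD-sitagliptin replicate 1. The mean of 6 smooth muscle genes was 10.54 on it and 8.65 to 9.24 on the others, with all 6 highest there. The mean of 6 fibroblast genes was 8.90 against 7.70 to 8.0, with 5 of 6 highest, and that of 14 macrophage and dendritic cell genes was 6.65 against 5.67 to 6.14, with 9 of 14 highest. The mean of 6 genes of enteric neurons and glia was 5.25 against 4.71 to 4.99, and that of 12 genes of T and NK cells was 5.01 against 5.12 to 5.86. The T and NK cell genes did not move as a group, with 3 of 12 lowest on that array, among them *Gzmb*, and 2 highest, among them *Cd4*. Other means on that array lay within the range of the others. They were 5.74 against 5.42 to 5.86 for endothelium, 5.20 against 4.69 to 5.30 for mast cells and 3.54 against 3.36 to 3.59 for neutrophils. The part of these genes, and of the brush border and colonic genes, in the receptor values of that array was not tested.

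**Figure D3:**
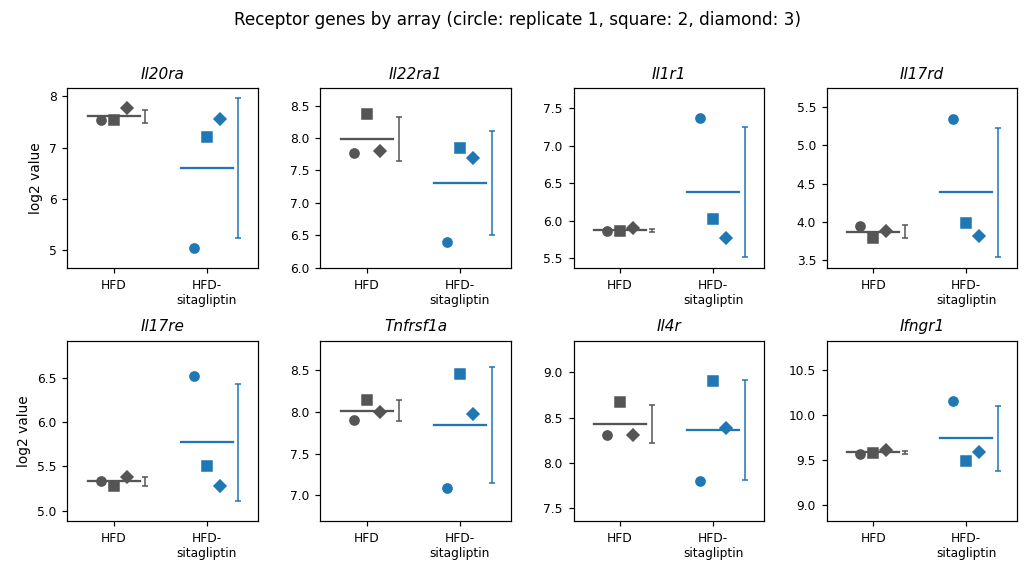
Log2 level on each of the 6 arrays, by group, for 8 of the receptor genes in which HFD-sitagliptin replicate 1 lay outside the other 5 arrays. All that lay at least 1 outside are drawn. The rest do not follow a rank, since *Il12rb2* (0.81 outside) is not drawn and *Ifngr1* (0.55) is. The line is the mean of the group and the bar beside it the SD (n = 3). The circle of HFD-sitagliptin replicate 1 stands off, high for *Il1r1* (7.37), *Il17rd* (5.35), *Il17re* (6.53) and *Ifngr1* (10.16) and low for *Il20ra* (5.05), *Il22ra1* (6.39), *Tnfrsf1a* (7.09) and *Il4r* (7.80).

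The 10 receptors of the interleukin 6 and 12 families had a median difference of 0.14, from -0.27 to 0.61. *Il6r*, the chain that binds interleukin 6, was at 5.90, 5.65 and 5.65 in the HFD-sitagliptin arrays and at 5.29, 5.44 and 5.65 in the HFD arrays. The groups met at 5.65, a value that 3 arrays shared, and the difference was 0.27 (SE 0.15, 95% interval -0.08 to 0.62). *Il6st*, gp130, the signalling chain that *Il6r* shares with *Il11ra1*, *Lifr* and *Osmr*, was at 8.75, 8.13 and 7.75 against 8.17, 7.99 and 8.07. Its difference was 0.13 (SE 0.25) and -0.14 without HFD-sitagliptin replicate 1. The partners of gp130 went opposite ways on that array. *Il11ra1*, which binds interleukin 11, was at 6.16 there against 4.91 to 5.36 elsewhere, and *Lifr*, the receptor of leukemia inhibitory factor, was at 6.37 against 7.03 to 7.14. *Il12rb2*, the signalling chain for interleukin 12, had the most positive difference of all receptor genes, 0.61 (SE 0.39, 95% interval -0.33 to 1.54), at 4.77, 3.96 and 3.77 against 2.84, 3.96 and 3.89. Its mean was not above background, and the difference rested on the highest array, HFD-sitagliptin replicate 1, and the lowest, HFD replicate 1. It was 0.30 without the former.

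*Il23r*, the specific chain of the interleukin 23 receptor of T cells and innate lymphoid cells, was at 3.14, 3.18 and 3.16 in the HFD-sitagliptin arrays and at 3.45, 3.50 and 3.35 in the HFD arrays. The groups did not overlap, and the difference was -0.27 (SE 0.11, unadjusted p 0.042 and adjusted p 0.718 in limma). All 6 values were under the background level, and the mean of *Il23r* lay at the 72.9 percentile of the olfactory receptor genes, so these values do not show that the gene was expressed. When 1 array was left out, the difference ran from -0.31 to -0.24, and the unadjusted p in limma was no longer under 0.05 in 5 of the 6 fits, the exception being that without HFD replicate 3. It was 0.067 without HFD-sitagliptin replicate 1 and 0.085 with the replicate number as a block. Its upstream sequence is shown because *Il23r* alone among the receptor genes had an unadjusted p under 0.05. It lies on the minus strand at chr4:98003760-98004009 (GRCr8) and is printed in the direction of transcription, with a match to the NF-kB letters in capitals at bases 123 to 132.
Il23r: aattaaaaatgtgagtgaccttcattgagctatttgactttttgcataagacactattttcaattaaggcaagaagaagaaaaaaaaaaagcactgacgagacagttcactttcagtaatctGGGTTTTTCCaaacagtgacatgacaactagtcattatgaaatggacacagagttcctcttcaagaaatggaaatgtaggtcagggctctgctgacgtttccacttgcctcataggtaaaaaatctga
The stretch is 36.4% G and C with 2 CpG dinucleotides. The NF-kB letters were present in 3 of the 49 matched receptor genes (*Ifngr2*, *Il23r* and *Tnfrsf4*, 6.12%), the STAT letters in 3 (*Il12rb2*, *Il18r1* and *Tnfrsf12a*) and the AP-1 letters in 4 (*Ifnar1*, *Osmr*, *Tnfrsf1b* and *Tnfrsf8*). *Il12rb2* is the neighbour of *Il23r* in the genome.

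The receptors that use the common gamma chain, together with the interleukin 13 receptors, had 8 differences between -0.10 and 0.21. *Il2rg*, the common gamma chain itself, was at 5.49, 5.68 and 5.43 against 5.49, 5.48 and 5.01, a difference of 0.21 (SE 0.17, 95% interval -0.21 to 0.62). *Il13ra1*, which pairs with *Il4r* on epithelial and stromal cells, was at 9.91, 10.58 and 10.49 against 10.36, 10.32 and 10.46. *Il4r* was at 7.80, 8.91 and 8.38 against 8.31, 8.68 and 8.31. Both chains of this pair were lowest on HFD-sitagliptin replicate 1, and their differences of -0.06 (SE 0.20) and -0.07 (SE 0.29) were 0.15 and 0.21 without it. *Il7r*, of lymphocyte survival, had a difference of -0.10 (SE 0.15), or -0.0056 without that array, with overlapping groups. Of the common beta chain receptors, *Csf2rb*, the shared chain itself, was at 5.16, 5.88 and 5.31 against 5.51, 5.32 and 5.36, a difference of 0.05 (SE 0.20) that was 0.20 without that array, and *Il5ra*, of eosinophils, was far under the background level at 1.96 to 2.41.

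Among the TNF receptors, *Tnfrsf1a*, the widely expressed death domain receptor of TNF, was at 7.09, 8.45 and 7.98 in the HFD-sitagliptin arrays and at 7.90, 8.14 and 8.0 in the HFD arrays. HFD-sitagliptin replicate 1 was lowest and replicate 2 highest, and the difference went from -0.17 (SE 0.34) to 0.20 without replicate 1. *Tnfrsf1b*, the TNF receptor of leukocytes, was at 6.39, 6.97 and 6.40 against 5.95, 6.41 and 6.25. HFD replicate 2 lay among the treated arrays, and the difference was 0.38 (SE 0.21, 95% interval -0.12 to 0.89), or 0.48 without HFD-sitagliptin replicate 1. Leaving out replicate 2 of that group instead gave 0.19. *Tnfrsf10b*, the death receptor of TRAIL, was at 4.93, 5.20 and 5.59 against 5.92, 5.44 and 5.67, with a difference of -0.44 (SE 0.21, 95% interval -0.95 to 0.08). It was the only receptor gene to pass the threshold when 1 array was left out, at -0.61 without HFD-sitagliptin replicate 3, a fit in which 880 of all genes (4.84%) passed. Without HFD-sitagliptin replicate 1 it was -0.28. *Tnfrsf11a*, RANK, which M cells of the gut use, was at 8.18, 7.94 and 7.70 against 8.02, 7.65 and 7.51, a difference of 0.21 (SE 0.19), or 0.092 without HFD-sitagliptin replicate 1.

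The 8 TNF receptors of lymphocyte costimulation had differences from -0.01 to 0.33. *Tnfrsf14*, the mucosal receptor HVEM, was at 7.60, 7.48 and 7.17 against 7.31, 7.73 and 7.24 and had a difference of -0.01 (SE 0.19, 95% interval -0.46 to 0.44). *Tnfrsf13b*, TACI, a receptor of B cells for BAFF and APRIL, was at 4.78, 4.61 and 4.90 against 4.20, 4.51 and 4.60. The groups did not overlap, but their nearest values were 4.61 and 4.60, close to the background level, and the difference of 0.33 (SE 0.16, unadjusted p 0.076 in limma) did not pass. The mean of 6 genes of B and plasma cells was 5.62 to 6.01 in the HFD-sitagliptin arrays and 5.48 to 5.59 in the HFD arrays, although 0 of those 6 genes had separate groups on its own. The part of B cell number in the values of *Tnfrsf13b* was not tested. For the leukocyte receptors *Tnfrsf1b*, *Il10ra* and *Csf2rb*, the mean of the 14 macrophage and dendritic cell genes was 5.82 to 6.65 against 5.67 to 5.85, with 4 of 14 not overlapping (11.5% over all genes), and its part was not tested either.

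The ligands of these receptors were set beside them. Of 65 cytokine and TNF family ligands listed, 59 were measured and 25 were above background. 9 passed the threshold, against 365 of 18166 genes in all (2.01%). 2 of the 9 were higher (*Il18* and *Il22*) and 7 lower (*Il1a*, *Il1b*, *Il1f10*, *Il6*, *Ifna1*, *Ifng* and *Tnf*). By their means, 3 of the 9 (*Il1b*, *Il18* and *Il22*) were above background. The groups did not overlap for 11 of the 59, against 11.5% of all genes. The median difference of the 59 ligands was 0.0055. Most of the 9 are among genes that the study itself picked from these arrays, so the count is no independent evidence. *Il22*, which acts on epithelium to keep its barrier, was at 4.89, 4.91 and 5.19 against 4.26, 4.43 and 4.33, a difference of 0.66 (SE 0.13). Its HFD values were all under the background level of 4.44, so its mean was above that level only through the HFD-sitagliptin arrays. Its receptor chain *Il22ra1* differed by -0.67, or by -0.21 without HFD-sitagliptin replicate 1, and both intervals included 0. *Il18*, made by epithelial cells, was at 7.23, 7.76 and 7.37 against 6.61, 6.67 and 6.92, a difference of 0.72 (SE 0.18), beside 0.18 for *Il18r1*. *Il1b* was at 4.94, 5.23 and 4.71 against 5.53, 5.44 and 5.77, a difference of -0.62 (SE 0.17), beside 0.51 for *Il1r1*. Without HFD-sitagliptin replicate 1 the differences were -0.60 for *Il1b* and 0.02 for *Il1r1*.

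*Tnf*, *Il6* and *Ifng* were below the background level on all 6 arrays, with differences of -0.78, -0.67 and -0.65. The chains of their receptors were all above background, whereas *Il18rap* of the interleukin 18 receptor and the decoy *Il1r2* were not. When 1 array was left out, *Tnf* and *Il1f10* passed in all 6 fits. *Il18* did not pass without HFD-sitagliptin replicate 2 (0.57), nor *Il22* and *Il6* without HFD-sitagliptin replicate 3 (0.56 and -0.56). *Il1a* and *Il1b* did not pass without replicate 3 of either group, *Ifng* without replicate 2 of either group, and *Ifna1* in 4 of the 6 fits. The differences of the receptor genes were not tested against those of their ligands.

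**Figure D4:**
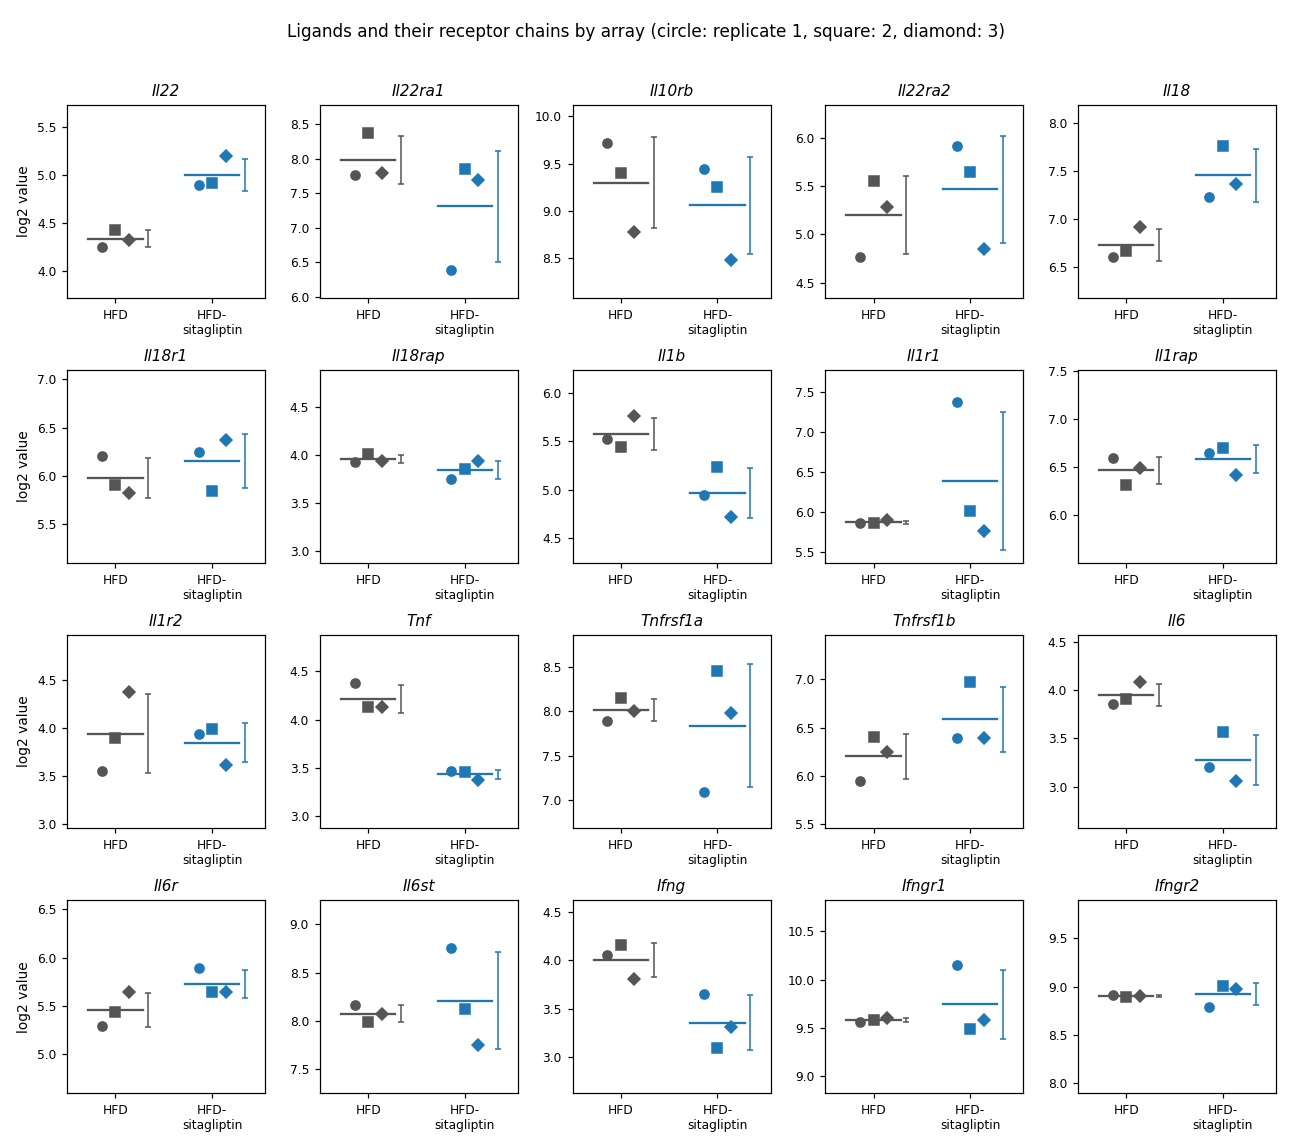
Log2 level on each of the 6 arrays, by group, for *Il22*, *Il18*, *Il1b*, *Tnf*, *Il6* and *Ifng*, each followed by its receptor chains. The line is the mean of the group and the bar beside it the SD (n = 3). The groups lie apart for each of the 6 ligands and overlap or meet for every receptor chain drawn. The 6 ligands had passed the threshold in these same arrays, and the chains were taken as their receptors. The contrast is therefore no test.

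Past the receptors, 34 of 39 listed kinases, STATs, adaptors and feedback inhibitors that act next to these receptors were measured, all above background. 0 of 34 passed the threshold, their median difference was -0.024, and 2 had an unadjusted p under 0.05, a share near the 5.72% of all genes. These were *Cish* and *Socs2*, whose values are given as a description. The groups did not overlap for 5 of the 34, against 11.5% of all genes. They were higher in the HFD-sitagliptin group for *Cish*, *Socs2* and *Stat5b* and lower for *Ptpn6* and *Ripk1*. *Cish*, a STAT5-induced inhibitor of cytokine receptors, was at 6.35, 6.39 and 6.41 in the HFD-sitagliptin arrays and at 5.96, 5.93 and 5.99 in the HFD arrays. The arrays of each group lay close together and the groups did not overlap, and the difference was 0.43 (SE 0.10), and 0.44 when HFD-sitagliptin replicate 1 was left out. *Socs2*, its relative that restrains growth hormone signalling, was at 7.34, 6.98 and 7.16 against 6.72, 6.82 and 6.55, also with separate groups, a difference of 0.47 (SE 0.14) and 0.38 without that array. Both had an adjusted p of 0.718 in limma. *Birc3*, an NF-kB target that joins the TNF receptor complex, had the widest difference, 0.88 (SE 0.37), and was at 7.66, 6.44 and 6.55 against 5.77, 6.47 and 5.78. Its difference was 0.49 without HFD-sitagliptin replicate 1, and it passed without HFD-sitagliptin replicate 2 (1.10), without HFD replicate 2 (1.11) and with quantile normalization (0.89). *Nfkbia*, the NF-kB inhibitor, had a difference of 0.40 and passed without HFD replicate 2 (0.66). Of all 18166 genes, 451 passed without HFD-sitagliptin replicate 2, 469 without HFD replicate 2 and 356 with quantile normalization. The signalling genes named here were chosen for the text after their values were seen.

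Of 17 listed receptors of the same superfamilies that the symbol pattern does not take in, 14 were measured. 0 of these passed the threshold with all arrays, and their median difference was 0.18. In 4 of the 6 fits without 1 array, 1 of them passed, which was *Ghr* without HFD-sitagliptin replicate 2 (-0.91), *Prlr* without HFD-sitagliptin replicate 3 (-0.97), *Ngfr* without HFD replicate 1 (0.59) and *Edar* without HFD replicate 2 (0.66). In these 4 fits, 451, 880, 239 and 469 of all 18166 genes passed, in the same order. *Ghr* and *Prlr* are the receptors of growth hormone and prolactin, and with all arrays each of them had a difference of -0.59. *Ngfr*, the neurotrophin receptor of the TNF receptor superfamily, was the only one with an unadjusted p under 0.05, with a difference of 0.44 (SE 0.18), or 0.33 without HFD-sitagliptin replicate 1, and overlapping groups.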

How the data were processed

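Affymetrix Rat Gene 2.0 ST arrays of 6 male rat pups were analysed, 3 per group, with groups from the sample labels. The labels and the study's methods name different RNA isolation reagents. The authors deposited 1 normalized value per transcript cluster and array, whose algorithm is not given in the sources used here. The deposited values are on a log2 scale, inferred from their range (array medians of 4.45 to 4.62 and a maximum of 13.55). Differences are thus log2 fold changes, and the number of arrays limits the precision. The study's other groups and assays were not analysed here, and scan batches are not given in the sources used here.

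Of 36685 clusters, 18511 carry 1 gene symbol in the platform table, 575 carry several and 17599 are not named by it. Clusters with 1 symbol were kept, and for the 291 genes with several, including *Il13ra1* and *Il13ra2*, the cluster with the highest mean was taken, which gave 18166 genes. limma 3.58.1 (R 4.3.3) was fitted over all of them without covariates, with empirical Bayes moderation and Benjamini-Hochberg adjustment. The fit was tested on simulated data. Intervals are unadjusted. The t-test named in the methods assumed equal variances.

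The members and lists were chosen with earlier results of these data known. The rule for named genes takes receptor genes past the threshold, those above background with separate groups, the gene of highest mean and that of the largest difference in each family, the receptor chains of *Il6*, *Il1a*, *Il1b*, *Tnf*, *Ifng*, *Il18* and *Il22*, and those with HFD-sitagliptin replicate 1 at least 1 outside the other arrays. *Il23r*, *Ifnlr1*, *Il10ra*, *Il11ra1*, *Il4r*, *Lifr* and *Il7r* were named after their values were seen. Neighbouring genes come from the RefSeq annotation, which held all 64 members, and upstream sequences from RefSeq (GRCr8) for 49.

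Deviations from the group means correlated at 0.146, 0.284 and 0.148 between arrays of the same replicate number and at -0.24 to 0.020 between others, so the numbers were treated as pairs in an alternative with a replicate block. No source states such a pairing, which rests on these correlations alone. The other alternatives were trended and robust moderation, quantile normalization, median centring, no dim genes, other rules for clusters and thresholds, and leaving out each array.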

Additional observations from a re-analysis of the deposited data

How the results depend on the processing

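The 64 receptor genes had 0 past the threshold with all arrays, 0 to 1 in fits without 1 array and 1 with no fold threshold (*Il23r*). Their median difference was 0.082, against 0.010 for all genes. In the fits without 1 array it lay between 0.015 and 0.084, against -0.0072 to 0.021 for all genes. Median centring lowered both medians, to 0.020 for the receptor genes and -0.052 for all genes. Over all genes, 365 passed, 239 to 880 when each array was left out, 158 by the methods' t-test and 1040 with no fold threshold. Median centring gave 81 higher and 390 lower genes, against 128 and 237. Of the ligands, 3 passed when dim genes were left out, against 9, and of the signalling genes 0 to 2 passed when each array was left out, 1 with quantile normalization (*Birc3*) and 2 with no fold threshold, against 0. With the replicate block, 476 genes and 0 receptor genes passed, so the pairing changed no receptor call at the study's threshold. At an unadjusted p under 0.05 alone, *Il23r* was lost with the block (p 0.085 in limma), which left 0 receptor genes. Of the receptors outside the symbol pattern, *Ghr* passed with the block.

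Of 448 alternative values for the 35 receptor genes named, 426 kept the direction and the side of the threshold, 21 over 12 genes changed sign and 1 came past the threshold. The replicate block, trended and robust moderation, the t-test and leaving out dim genes do not alter a difference. They could not change its sign, and the mean of the clusters could do so for *Il13ra1* only. The 426 therefore overstates how well the direction held. With median centring *Csf2rb* was at -0.0077 and *Ifngr2* at -0.041, and with quantile normalization *Tnfrsf14* was at 0.050. When each array was left out, the differences that changed sign ran from -0.16 to 0.20 for *Csf2rb*, -0.046 to 0.29 for *Ifngr1*, -0.019 to 0.089 for *Ifngr2*, -0.23 to 0.049 for *Ifnlr1*, -0.50 to 0.048 for *Il10rb*, -0.18 to 0.15 for *Il13ra1*, -0.21 to 0.12 for *Il17rc*, -0.28 to 0.12 for *Il1r2*, -0.34 to 0.21 for *Il4r*, -0.14 to 0.36 for *Il6st*, -0.10 to 0.14 for *Tnfrsf14* and -0.48 to 0.20 for *Tnfrsf1a*. The cause was not tested. Signal near background limits what can be said of 19 of the 64 genes.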
